A study of Homo sapiens with 18 samples.

Results

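Krüppel-like factors (KLFs) are zinc-finger transcription factors that bind GC-rich and CACCC sequences in promoters and enhancers. The family is usually divided by function. KLF2, KLF4, KLF5 and KLF6 act largely as activators and recruit acetyltransferases such as p300, KLF3 represses transcription through the corepressor CtBP, and KLF9, KLF10, KLF11, KLF13 and KLF16 bind the corepressor SIN3A. Several of these genes are themselves switched on within the first hours after a hormone, growth factor or stress reaches the cell, which is why they are often read as early response genes. The 10 genes named here are a list of names that was drawn up with earlier results of these data known. They are 10 of 15519 genes tested and of 23925 genes with a count, and all 10 passed the filter on low counts. The other 8 human KLF genes, 5 of which were also tested, are described further on as a list.

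The RNA came from HEK293 cells, a human embryonic kidney line, in wildtype form and in 2 derivatives made by CRISPR-Cas9. The Gαs KO line lacks the G protein subunit that activates adenylyl cyclase, and the β-arrestin1/2 KO line lacks the scaffold proteins that bind phosphorylated receptors. Cells of all 3 lines carried a transfected plasmid for the β2-adrenergic receptor (β2AR) and were deprived of serum overnight. At 48 h after transfection they received vehicle (basal) or 1 μM isoproterenol, a β-adrenergic agonist, for 1 h, and each of the 6 groups had 3 biological replicates. Each KO was represented by a single line, so a difference between a KO line and wildtype cells cannot be told apart from a difference between cell lines, and whether a line is 1 clone is not given in the sources used here.

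The expected counts of the 18 libraries summed to between 17908597 and 25019834. GNAS, which encodes Gαs, was lower at basal in the Gαs KO line, with a log2 difference of -4.32 from wildtype cells (adjusted p = 9.4e-12). ARRB2, which encodes β-arrestin2, was lower in the β-arrestin1/2 KO line, at -2.25 (adjusted p = 2.6e-08), both by the quasi-likelihood (QL) test of edgeR. ARRB1, which encodes β-arrestin1, had 786 normalized counts on average in that line and 948 in wildtype cells (adjusted p = 0.141, same test). NR4A1, FOS and PCK1 rose with isoproterenol in wildtype cells, by 1.83, 3.25 and 3.23 on the log2 scale (adjusted p = 2.7e-06, 8.6e-09 and 5.7e-09, same test). Of these 6 check genes, 3 rose at an adjusted p under 0.05 in β-arrestin1/2 KO cells and 0 in Gαs KO cells. Of 5 HEK293 markers, VIM and NEFL ran from 660 to 1592 and from 42.8 to 189 TPM. TPM is counts per transcript length scaled to a fixed sum. The other markers were low, with PAX2 between 0.536 and 5.22, NEFM between 0.526 and 2.83 and INA between 0.693 and 7.47 TPM. Among markers of other cells, CD3E and HBB were at 0 in every library, PTPRC, DCN, ALB and PECAM1 stayed at or below 1.22 TPM, and GFAP and COL1A1 reached 3.86 and 23.6 TPM.

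Wildtype basal replicate 1 stood apart from the other libraries. The mean GC content of its counted transcripts was 52.5%, against 49.2 to 50.1% in the other 17 libraries. Relative to wildtype basal replicates 2 and 3, the median log2 difference in this library went from -1.07 in the 1552 tested genes of lowest GC content to 0.74 in the 1552 of highest. The KLF genes followed their GC content. KLF10, KLF6 and KLF3 were -0.59, -0.53 and -0.50 in it, and KLF2, KLF13, KLF16 and KLF4 were 0.71, 0.55, 0.54 and 0.28. KLF9 differed least, by -0.10. The results of the KLF members that rest on wildtype basal cells are therefore given with and without this library where it changes a call, turns the sign or moves the value markedly. A gene is said to be called without further words by the quasi-likelihood (QL) test of edgeR fitted to all 18 libraries.

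**Figure D1:**
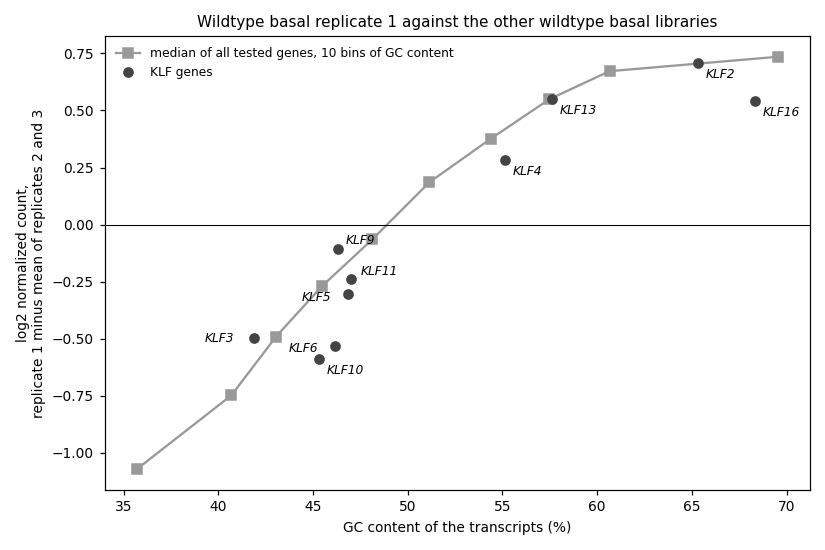
Each dark point is a KLF gene, placed by the GC content of its transcripts (x axis, %) and by the log2 normalized count of wildtype basal replicate 1 minus the mean of replicates 2 and 3 (y axis). Grey squares are medians of all tested genes in 10 bins of GC content, and the KLF genes run from -0.59 (KLF10) to 0.71 (KLF2) along the same slope.

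Levels between genes were compared in TPM, which divides counts by transcript length. In wildtype basal cells the order was KLF16 (41.2 TPM), KLF6 (34.4), KLF3 (31.6), KLF11 (31.1), KLF9 (22.0), KLF4 (20.7), KLF10 (13.5), KLF13 (9.53), KLF5 (8.82) and KLF2 (5.30), as means of 3 libraries. All 10 genes were thus transcribed in serum-starved cells before any agonist was added. The first places in this order rest in part on wildtype basal replicate 1, and KLF16 had an SD of 12.3 TPM. Without that library the mean normalized counts were 721 for KLF16, 1694 for KLF6 and 1682 for KLF3. With it they were 829, 1521 and 1519. The TPM order without it was not computed. The order was different in β-arrestin1/2 KO cells, where KLF5 stood first with 92.0 TPM at basal and KLF16 was at 27.6 TPM. KLF5 alone held 25.3% of the summed TPM of the 10 genes there.

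**Figure D2:**
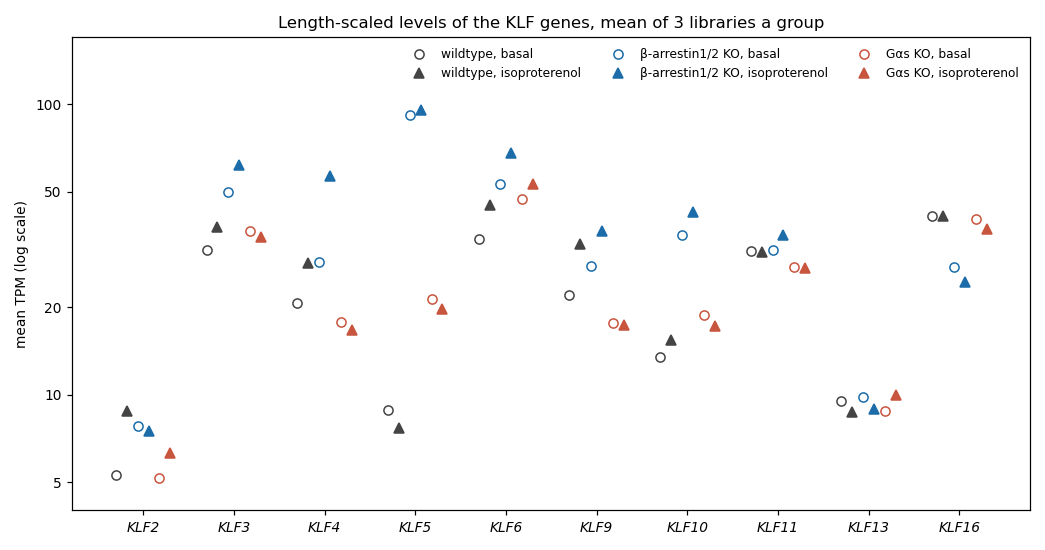
Mean TPM of 3 libraries (y axis, log scale) for each KLF gene (x axis) in the 6 groups, with circles for basal and triangles for isoproterenol and a colour for each line. KLF5 spans the widest range, from 7.70 TPM in isoproterenol-treated wildtype cells to 95.3 TPM in isoproterenol-treated β-arrestin1/2 KO cells.

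The question addressed first was which KLF genes responded to 1 h of isoproterenol and whether the response needed Gαs or the β-arrestins. Normalized counts below are counts scaled by edgeR's TMM factors to the mean library, so they compare a gene between groups and not genes with each other. A gene is called when its Benjamini-Hochberg adjusted p over all 15519 genes is under 0.05. KLF4, KLF6 and KLF9 were the members called in a response, and their upstream sequences are shown first. In bulk RNA, a lower level in each cell and fewer cells with the transcript cannot be told apart. RefSeq's promoter windows (GRCh38.p14, 250 bases before and 50 after a gene start) held 8 of the 10 genes in 10 windows, and KLF3 and KLF10 were not among them. The windows were searched on both strands for the cyclic AMP response element (CRE, TGACGTCA), its core (TGACG, which is also found within a full CRE), the GC box (GGGCGG), the CACCC box (CACCC), and the CArG box and MEF2 site by name. Of 35116 windows in the table, 1.85% held a full CRE, 24.6% a CRE core, 45% a GC box, 59.9% a CACCC box, 1.29% a CArG box and 0.572% a MEF2 site. The 4 sequences below run 5′ to 3′ on the strand of the gene and stop at the gene start or at the first exon that GENCODE annotates, and capitals mark the letters of a CRE or CRE core, of which KLF6 and KLF9 held none. KLF11 is shown with its second window because it alone held a full CRE, although KLF11 was not called in any response. The KLF11 sequence lies within an intron of KLF11-201, which starts at 10043555 and took 84.2 to 98.0% of the gene's counts as group means. It precedes the starts of KLF11-203 and KLF11-205, with means of 0.6 and 78.7 counts a library.
KLF4, chr9:107489770-107490019, minus strand: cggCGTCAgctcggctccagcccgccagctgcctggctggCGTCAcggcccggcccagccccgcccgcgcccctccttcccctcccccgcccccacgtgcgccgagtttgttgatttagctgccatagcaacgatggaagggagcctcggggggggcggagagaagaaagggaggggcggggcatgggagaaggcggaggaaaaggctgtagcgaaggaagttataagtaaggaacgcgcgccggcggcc
KLF6, chr10:3785282-3785459, minus strand: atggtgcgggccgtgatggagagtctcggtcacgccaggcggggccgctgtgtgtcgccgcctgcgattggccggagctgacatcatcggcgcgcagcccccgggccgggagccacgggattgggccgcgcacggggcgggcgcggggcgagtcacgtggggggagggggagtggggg
KLF9, chr9:70414658-70414907, minus strand: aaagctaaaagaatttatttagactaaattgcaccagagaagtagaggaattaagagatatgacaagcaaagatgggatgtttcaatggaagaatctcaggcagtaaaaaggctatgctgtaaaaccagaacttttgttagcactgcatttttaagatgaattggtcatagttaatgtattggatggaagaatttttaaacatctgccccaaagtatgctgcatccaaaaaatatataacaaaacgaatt
KLF11, chr2:10043971-10044174, plus strand: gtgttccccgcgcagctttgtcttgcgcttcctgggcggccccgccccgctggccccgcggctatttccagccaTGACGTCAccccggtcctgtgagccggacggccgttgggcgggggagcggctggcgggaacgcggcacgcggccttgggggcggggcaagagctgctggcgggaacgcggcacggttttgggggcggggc
The KLF4 window held 2 CRE cores, whose first bases were at -247 and -210 from the gene start, and 4 GC boxes, and the sequence shown lies within an intron of the longer transcript KLF4-203. The KLF6 window held 2 GC boxes and none of the other motifs, and the KLF9 window, at 32.7% GC, held none of the 6 motifs. KLF2 held a MEF2 site with its first base at -120, KLF13 held 1 CRE core and KLF16 held 2. KLF5 held a CRE core in its second window, at -14. Only the first 37 bases of that window precede the first annotated exon of KLF5-201, so this core lies after the start of that transcript. These matches describe letters in the windows and were not tested against the responses.

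KLF4, an activator known for its part in epithelial differentiation and in reprogramming to pluripotency, had the largest fold change of the 10 genes in β-arrestin1/2 KO cells (ENSG00000136826, chromosome 9, 107484852 to 107490482, minus strand, GRCh38). It had 654, 690 and 675 normalized counts at basal there and 1539, 1291 and 1550 with isoproterenol. The isoproterenol libraries all lay far above the basal ones. The log2 fold change was 1.12 (standard error 0.10), a 2.17-fold rise (adjusted p = 5.9e-06, edgeR QL test). In wildtype cells KLF4 had 629, 500 and 535 counts at basal and 833, 799 and 699 with isoproterenol. These groups did not overlap either, but with a log2 fold change of 0.49 (standard error 0.10) the adjusted p was 0.0538, so KLF4 was not called. Without wildtype basal replicate 1 it was called, at 0.59 (adjusted p = 0.00242), as it was without isoproterenol replicate 3, at 0.56 (adjusted p = 0.0414). DESeq2's Wald test on all libraries also called it (0.48, adjusted p = 0.00242). The other fits that left out 1 of the 6 wildtype libraries did not, with adjusted p up to 0.26. Nor did an edgeR fit to the wildtype libraries alone (0.49, standard error 0.15, adjusted p = 0.946), where 0.0903% of all genes passed. Without Gαs, the counts were 443, 474 and 487 at basal and 462, 446 and 404 with isoproterenol, which overlapped (log2 fold change -0.10, 95% interval -0.30 to 0.11, adjusted p = 1).

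KLF6, a widely expressed activator that is induced early after injury and growth stimulation (ENSG00000067082, chromosome 10, 3775996 to 3785281, minus strand), rose in β-arrestin1/2 KO cells. Its counts there were 2055, 2196 and 2273 at basal and 2968, 3094 and 2887 with isoproterenol. The groups stood apart, with a log2 fold change of 0.46 (standard error 0.11, adjusted p = 0.0487, edgeR QL test). That call was close to the threshold. It was lost when any of the 6 libraries of that line was left out, with adjusted p from 0.126 to 0.308, while the log2 fold change stayed between 0.42 and 0.48. Of 15 alternative fits, 7 called it. These included DESeq2's Wald test (0.46, adjusted p = 0.00246) and an edgeR fit to that line alone (0.46, adjusted p = 7.3e-04), where 1.88% and 7.94% of all genes were called. In wildtype cells KLF6 had 1173, 1737 and 1652 counts at basal and 2104, 1993 and 1949 with isoproterenol. The low basal value is replicate 1. The log2 fold change was 0.41 (standard error 0.11, adjusted p = 0.165) with that library and 0.25 (standard error 0.051, adjusted p = 0.019) without it, when KLF6 was called. It was called as well without basal replicate 2 (0.51, adjusted p = 0.0398) and by DESeq2's Wald test on all libraries (0.40, adjusted p = 0.0274). The other fits that left out a wildtype library did not call it, with adjusted p up to 0.457. Nor did an edgeR fit to the wildtype libraries alone (0.41, standard error 0.17, adjusted p = 0.946), where 0.0903% of all genes passed. KLF6 in Gαs KO cells had 2066, 2065 and 1977 counts at basal and 2258, 2296 and 2238 with isoproterenol. All 3 isoproterenol libraries were above all 3 basal ones, by 0.15 on the log2 scale (95% interval -0.05 to 0.36), and KLF6 was not called there (adjusted p = 1).

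KLF9, a SIN3A-binding repressor best known as a target of glucocorticoid and thyroid hormone receptors (ENSG00000119138, chromosome 9, 70384597 to 70414624, minus strand), was the only member called in wildtype cells by the edgeR QL test on all 18 libraries. It had 1157, 1290 and 1201 counts at basal and 1821, 1683 and 1658 with isoproterenol. No library of the 2 groups overlapped. The log2 fold change was 0.50 (standard error 0.080, adjusted p = 0.00401, edgeR QL test), and it was 0.47 (adjusted p = 0.00173) without wildtype basal replicate 1. It was not called in a fit to the wildtype libraries alone (0.50, standard error 0.12, adjusted p = 0.946), where 0.0903% of all genes passed. In β-arrestin1/2 KO cells the counts were 1389, 1371 and 1305 at basal and 1917, 1930 and 1684 with isoproterenol. KLF9 rose there by 0.44 on the log2 scale (standard error 0.079, adjusted p = 0.00614). It was not called without basal replicate 3 of that line (0.41, adjusted p = 0.0586) or without isoproterenol replicate 1 (0.41, adjusted p = 0.051). The Gαs KO counts were 911, 955 and 821 at basal and 885, 918 and 861 with isoproterenol, which overlapped fully (log2 fold change -0.01, 95% interval -0.17 to 0.15, adjusted p = 1).

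Counted over the family, 1 of 10 members was called in wildtype cells by the edgeR QL test on all libraries (KLF9, higher), where 0.412% of all tested genes passed upward and 0.464% either way. The number was 3 (KLF4, KLF6 and KLF9) by DESeq2's Wald test, where 1.2% of all genes were called, and 3 without wildtype basal replicate 1, where 1.1% were. In β-arrestin1/2 KO cells 3 of 10 were called (KLF4, KLF6 and KLF9), all higher, where 0.954% of all genes passed upward and 1.13% in either direction. Without Gαs, 0 of 10 were called by the edgeR QL test or by DESeq2's Wald test, and 0 had an unadjusted p under 0.05 by edgeR. Over all genes 0% were called there by edgeR and 0.058% by DESeq2. The median log2 fold change of the 10 genes was 0.17, 0.25 and -0.01 in the 3 lines in that order, against -0.0022, -0.0083 and -0.0011 over all tested genes. By the simpler measure of groups that do not overlap, 3 members stood apart in wildtype cells (9.01% of all genes), all with higher counts after isoproterenol (4.85% of all genes). In β-arrestin1/2 KO cells 7 did (29.7% of all genes), 6 upward (15.4%) and 1 downward (14.4%). For Gαs KO cells the number was 4 (10.5% of all genes), 2 upward (4.9%) and 2 downward (5.58%). The β-arrestin1/2 KO share has a wide background, and in that line the mean GC content of counted transcripts was 49.8 to 50.1% at basal and 49.3 to 49.4% with isoproterenol. The part of GC content in these shifts was not tested. A fit with offsets for GC content and transcript length together gave log2 fold changes of 1.19 for KLF4, 0.42 for KLF6 and 0.41 for KLF9. These 3 genes were called in that fit, as was KLF3, where 2.4% of all genes were called. The member that stood apart downward was KLF16, whose log2 fold change went from -0.24 to 0.03 with the offsets, and KLF2 went from -0.07 to 0.14.

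**Figure D3:**
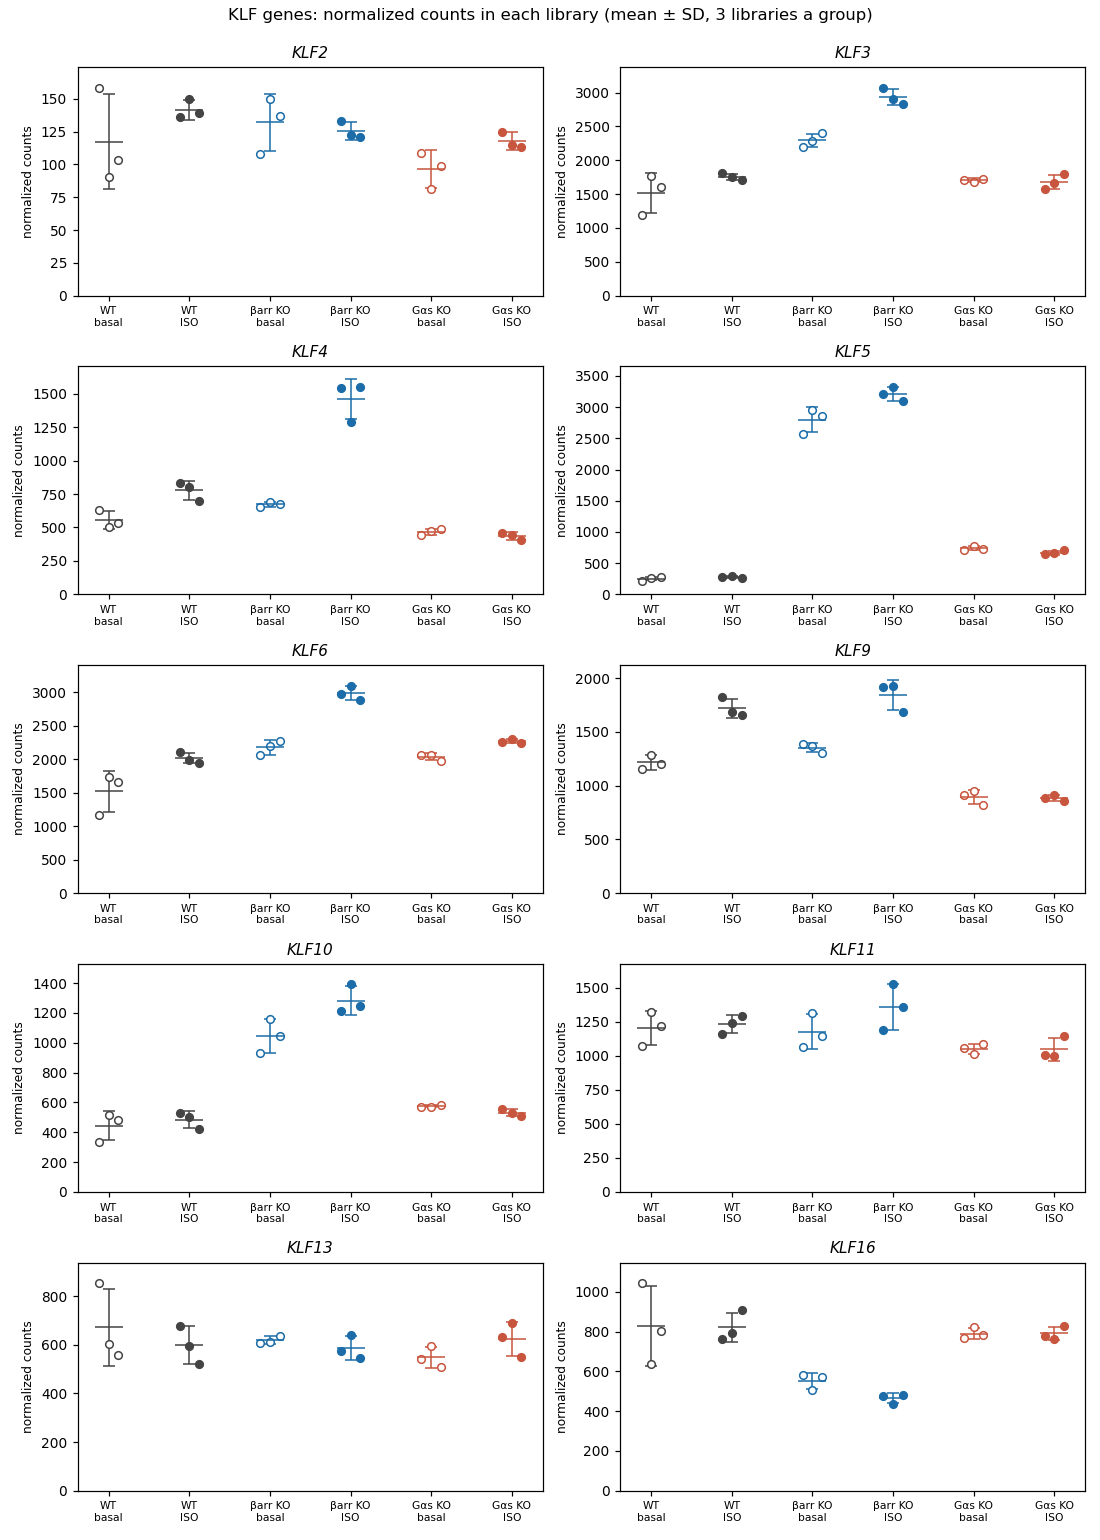
Normalized counts (y axis, from 0) of each KLF gene in every library, 3 per group, with open circles for basal and filled circles for isoproterenol. Bars are the mean ± SD. KLF4 in β-arrestin1/2 KO cells goes from 654 to 690 at basal to 1291 to 1550 with isoproterenol, while in Gαs KO cells its 6 libraries sit between 404 and 487.

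**Figure D4:**
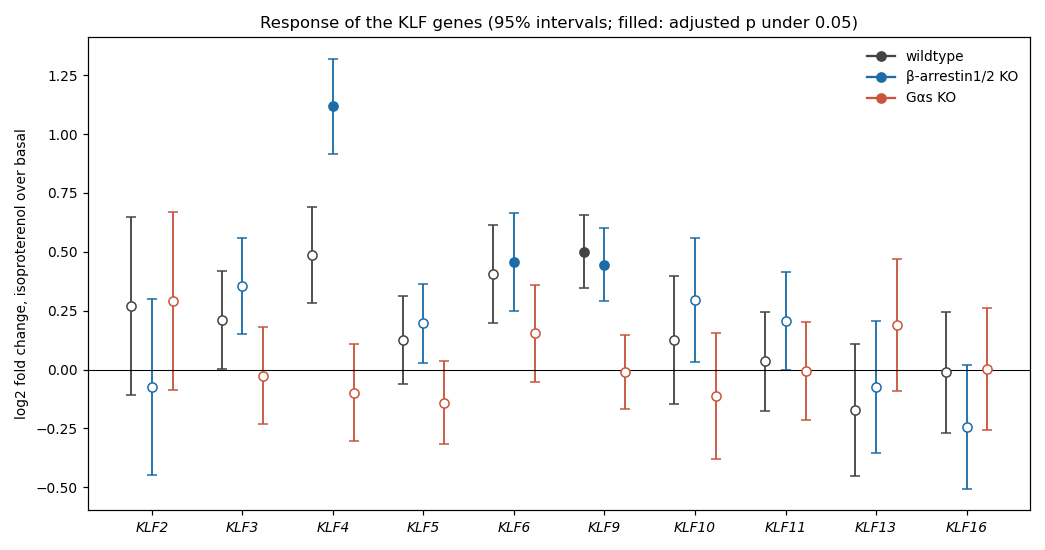
Log2 fold change of isoproterenol over basal (y axis) for each KLF gene in the 3 lines, with 95% intervals from the edgeR fit. Filled points are called at an adjusted p under 0.05, namely KLF9 in wildtype cells and KLF4, KLF6 and KLF9 in β-arrestin1/2 KO cells, and no point of the Gαs KO line is filled.

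Differences between the lines in the size of the response were tested with an interaction term. The comparisons with wildtype cells share the wildtype libraries with each other and with the wildtype response, so they are not independent of one another. None of the 10 members was called by edgeR's test in the difference of β-arrestin1/2 KO and wildtype responses, where 0.168% of all genes were. DESeq2's Wald test called 1 member, where 0.67% of all genes were, and 1 had an unadjusted p under 0.05 by edgeR. None was called by edgeR in the difference of Gαs KO and wildtype responses, where 0.161% of all genes were. DESeq2's Wald test called 1 member there, where 0.438% of all genes were, and 2 had an unadjusted p under 0.05 by edgeR. The share of all genes under that unadjusted p is not given here. The gene behind both counts of 1 in the first difference was KLF4. Its response in β-arrestin1/2 KO cells minus that in wildtype cells was 0.63 on the log2 scale (standard error 0.15, 95% interval 0.34 to 0.92, adjusted p = 0.161), and 0.53 (adjusted p = 0.0189, called) without wildtype basal replicate 1, when 8.25% of all genes were called in this difference. DESeq2's Wald test gave 0.63 (adjusted p = 0.00971).

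The KLF4 response in Gαs KO cells minus that in wildtype cells was -0.58 on the log2 scale (standard error 0.15, adjusted p = 0.299), which became -0.68 and called without wildtype basal replicate 1 (adjusted p = 0.0172), when 0.418% of all genes were called. For KLF9 the same difference was -0.51 (standard error 0.11, adjusted p = 0.144), and -0.48 and called without that library (adjusted p = 0.0415). DESeq2's Wald test called the KLF9 difference with all libraries (-0.51, adjusted p = 0.00545). The KLF9 response in β-arrestin1/2 KO cells minus that in wildtype cells was -0.06 with a 95% interval from -0.28 to 0.16, and -0.02 without that library. For KLF6 it was 0.05 with an interval from -0.24 to 0.34, and 0.20 (adjusted p = 0.0694) without it.

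A direct comparison of the responses of the KO lines, which uses no wildtype mean, was added after seeing the data. In the fit to all 18 libraries KLF4 was the 1 member called (0.387% of all genes were called higher and 0.406% in either direction), with a difference of 1.22 on the log2 scale (standard error 0.15, adjusted p = 2.5e-04 by the edgeR QL test). It was called in each of the 12 fits that left out 1 library, at 1.16 to 1.29. The KLF9 difference was 0.46 (standard error 0.11, adjusted p = 0.155), which DESeq2's Wald test called (adjusted p = 0.0144). The KLF6 difference was 0.30 with a 95% interval from 0.01 to 0.60 (adjusted p = 0.998). Fitted to the 12 KO libraries alone, 3.73% of all genes and 5 members were called, namely KLF4 (1.21, adjusted p = 1.7e-05), KLF9 (0.45, adjusted p = 0.0145), KLF3 (0.38, adjusted p = 0.00956), KLF5 (0.33, adjusted p = 0.0355) and KLF6 (0.30, adjusted p = 0.0143).

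The other 7 members were not called in any response by the edgeR QL test on all libraries. KLF3, the CtBP-dependent repressor (ENSG00000109787, chromosome 4, 38664196 to 38701042, plus strand), came nearest in β-arrestin1/2 KO cells. Its counts there were 2203, 2278 and 2398 at basal and 3065, 2905 and 2828 with isoproterenol. The groups did not overlap, and the log2 fold change was 0.36 (standard error 0.10, adjusted p = 0.195), which GC and length offsets turned into 0.28 with a call (adjusted p = 0.00391). It was also called in a fit to the libraries of that line alone (0.36, adjusted p = 0.00372), where 7.94% of all genes were called. In wildtype cells KLF3 gave 0.21 with all libraries and 0.06 without basal replicate 1, and in Gαs KO cells -0.03. KLF3 was also called in the difference of the β-arrestin1/2 KO and wildtype responses, but only without that replicate (0.29, adjusted p = 0.031, against 0.15 and adjusted p = 1.00 with it), when 8.25% of all genes were called.

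KLF10 and KLF11 are close relatives first described as genes induced by transforming growth factor β. KLF10 (ENSG00000155090, chromosome 8) had 932, 1159 and 1048 counts at basal and 1215, 1391 and 1244 with isoproterenol in β-arrestin1/2 KO cells, a log2 fold change of 0.29 (adjusted p = 0.578). In Gαs KO cells it had 571, 571 and 582 at basal and 556, 530 and 508 with isoproterenol, a log2 fold change of -0.11 (adjusted p = 1). The libraries were apart upward in the first of these 2 lines (15.4% of all genes) and downward in the second (5.58%). The share of all genes with both was not computed. By the edgeR QL test the difference of the 2 responses was 0.41 (adjusted p = 0.998, and 0.0582 in the fit to the KO libraries alone). In wildtype cells KLF10 gave 0.12, and -0.05 without basal replicate 1, neither called. KLF11 (ENSG00000172059, chromosome 2, 10042849 to 10054836, plus strand), whose second window carries the full CRE shown above, had a log2 fold change of 0.03 in wildtype cells (95% interval -0.17 to 0.24, and -0.04 without basal replicate 1), 0.21 in β-arrestin1/2 KO cells and -0.01 in Gαs KO cells. Its 18 libraries lay between 995 and 1524 counts, and each group overlapped its neighbours in the order of means.

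KLF5, an activator of proliferation in epithelial cells (ENSG00000102554, chromosome 13, 73054976 to 73077542, plus strand), also had libraries apart in opposite directions in the KO lines. Isoproterenol libraries were 1.15-fold the basal mean in β-arrestin1/2 KO cells and 0.908-fold in Gαs KO cells, and neither change was called (adjusted p = 0.552 and 1, edgeR QL test). As for KLF10, the share of all genes apart in opposite directions was not computed. The difference of the KLF5 responses in the KO lines was 0.34 on the log2 scale (adjusted p = 0.772, edgeR QL test). It was called only in the fit to the KO libraries alone given above. In wildtype cells the log2 fold change was 0.13, and 0.03 without basal replicate 1. KLF2, a vascular and lymphocyte quiescence factor (ENSG00000127528, chromosome 19, 16324817 to 16327874, plus strand), had the lowest normalized counts of the 10, from 81 to 158, and its 6 groups all overlapped their neighbours in the order of means. Within Gαs KO cells its isoproterenol libraries, 113 to 125, lay above the basal ones, 81 to 109, without a call. Its log2 fold change in wildtype cells was 0.27 with a 95% interval from -0.11 to 0.65, and 0.55 (adjusted p = 0.16) without basal replicate 1. KLF13 (ENSG00000169926, chromosome 15, 31326855 to 31435665, plus strand) and KLF16 (ENSG00000129911, chromosome 19, 1852399 to 1863568, minus strand), SIN3A-binding repressors of GC-box promoters, gave wildtype log2 fold changes of -0.17 and -0.01. Leaving out basal replicate 1 turned these into 0.04 and 0.19, not called in either case.

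The second question was how the KO lines differed from wildtype cells before stimulation. Differences at basal were common over the genome, since 33.6% of all tested genes passed in the β-arrestin1/2 KO comparison with wildtype cells and 31.3% in that of Gαs KO cells. In β-arrestin1/2 KO cells 6 of the 10 members were called, 5 higher (15.7% of all genes) and 1 lower (17.9% of all genes), and 3 in Gαs KO cells, 2 higher (14.2% of all genes) and 1 lower (17.1% of all genes). By groups that do not overlap, 7 members stood apart in β-arrestin1/2 KO cells (37.5% of all genes) and 5 in Gαs KO cells (38% of all genes). These 2 comparisons share the wildtype basal libraries. The share of all genes called rose in other fits, given here for β-arrestin1/2 KO cells first. It was 46.7% and 45.9% without wildtype basal replicate 1, 37.3% and 35.6% without replicate 2, and 48.4% and 46.8% with GC and length offsets. Marker genes moved too. Of 5 HEK293 markers 3 were called higher and 1 lower in β-arrestin1/2 KO cells and 2 higher in Gαs KO cells by edgeR's test. COL1A1 and GFAP, markers of other cells, were called lower in Gαs KO cells (log2 differences of -0.75 and -1.58), and neither was called in β-arrestin1/2 KO cells. Their part in the KLF differences was not tested. In fits to the basal libraries of each comparison alone, KLF5 and KLF10 were called in β-arrestin1/2 KO cells (10.3% of all genes) and KLF5 in Gαs KO cells (10.8% of all genes), and the other members called above were not (adjusted p from 0.0681 to 0.244).

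KLF5 showed by far the largest difference. At basal its wildtype counts were 220, 270 and 274, those of β-arrestin1/2 KO cells 2575, 2962 and 2866, and those of Gαs KO cells 713, 771 and 728. The 3 lines were separate from each other, and the order held with isoproterenol, where wildtype cells had 257 to 296 counts, Gαs KO cells 640 to 706 and β-arrestin1/2 KO cells 3100 to 3323. The log2 difference from wildtype cells at basal was 3.46 (standard error 0.098, adjusted p = 5.1e-13) in β-arrestin1/2 KO cells and 1.53 (standard error 0.094, adjusted p = 6.8e-09) in Gαs KO cells, by the edgeR QL test. Both were called in all fits that left out a library, at 3.37 to 3.52 and 1.44 to 1.59.

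KLF10 had the second largest difference in β-arrestin1/2 KO cells. Its wildtype basal counts were 332, 517 and 483, against 932, 1159 and 1048 without the β-arrestins and 571, 571 and 582 without Gαs. Its log2 difference in β-arrestin1/2 KO cells was 1.24 (standard error 0.14, adjusted p = 5.4e-06), and 1.07 without wildtype basal replicate 1, which held the low value of 332. In Gαs KO cells it was 0.37 (adjusted p = 0.0504), and 0.20 (adjusted p = 0.124) without that library. It was called there by DESeq2's Wald test and with GC and length offsets, and without wildtype basal replicate 2 (0.49) or replicate 3 (0.44). KLF3 had 1192, 1762 and 1602 counts in wildtype basal libraries against 2203, 2278 and 2398 without the β-arrestins, which is 0.59 on the log2 scale (adjusted p = 4.2e-04), or 0.45 without the replicate (adjusted p = 7.1e-06). In Gαs KO cells KLF3 had 1716, 1679 and 1730, which overlapped the wildtype libraries (0.17, adjusted p = 0.24) and which were called without wildtype basal replicate 2 (0.29, adjusted p = 0.037).

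KLF6 was higher in both KO lines. The log2 difference was 0.52 (adjusted p = 0.0014) in β-arrestin1/2 KO cells and 0.42 (adjusted p = 0.00643) in Gαs KO cells. Both shrank without wildtype basal replicate 1, to 0.36 and 0.26, and both remained called. The isoproterenol-treated wildtype libraries of KLF6, 1949 to 2104 counts, overlapped the unstimulated Gαs KO libraries, 1977 to 2066.

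KLF4 and KLF9 each had a called difference at basal in 1 KO line. KLF4 was higher at basal in β-arrestin1/2 KO than in wildtype cells by 0.28 on the log2 scale (adjusted p = 0.0494), a call lost without any 1 of the other 2 wildtype libraries or any 1 of the 3 KO libraries (adjusted p up to 0.139) and kept, at 0.38, without wildtype basal replicate 1. Without Gαs, KLF4 was at -0.24 (adjusted p = 0.0887), at -0.14 without that replicate and at -0.32, called, without replicate 2 (adjusted p = 0.035). KLF9 was lower in Gαs KO cells, with 911, 955 and 821 counts against 1157, 1290 and 1201 in wildtype cells (log2 difference -0.44, standard error 0.080, adjusted p = 5.3e-04, and -0.48 without the replicate). In β-arrestin1/2 KO cells KLF9 was at 0.16 (adjusted p = 0.145), and at 0.13 without the replicate. Ordered by mean, KLF4 and KLF9 had the same sequence of groups, from β-arrestin1/2 KO with isoproterenol, wildtype with isoproterenol, β-arrestin1/2 KO basal and wildtype basal down to Gαs KO basal and Gαs KO with isoproterenol. For KLF4 every neighbour in that order was apart except the Gαs KO groups, and for KLF9 the 2 highest groups overlapped as well.

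KLF16 was the only member called lower in β-arrestin1/2 KO cells at basal. It had 1044, 639 and 803 counts in wildtype cells and 580, 505 and 570 in the KO line. The KO libraries lay below all wildtype ones, at -0.59 on the log2 scale (standard error 0.13, adjusted p = 0.00282), and at -0.38 (adjusted p = 0.00359) without wildtype basal replicate 1. The Gαs KO libraries had 766, 822 and 785 counts and overlapped wildtype cells (-0.07, adjusted p = 0.735, and 0.13 without the replicate, not called). KLF11 and KLF13 were not called at basal in either line by the edgeR QL test on all libraries. KLF11 was called in Gαs KO cells on all libraries with GC and length offsets and a replicate block, where 46.7% of all genes were called. Without wildtype basal replicate 1, KLF2 was called in β-arrestin1/2 KO cells (0.46, adjusted p = 0.0352), where 46.7% of all genes were. In the same fit KLF11 was called in Gαs KO cells (-0.27, adjusted p = 0.0307), where 45.9% of all genes were. Without replicate 3, KLF13 was called in Gαs KO cells (-0.41, adjusted p = 0.0427), where 30.9% of all genes were.

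**Figure D5:**
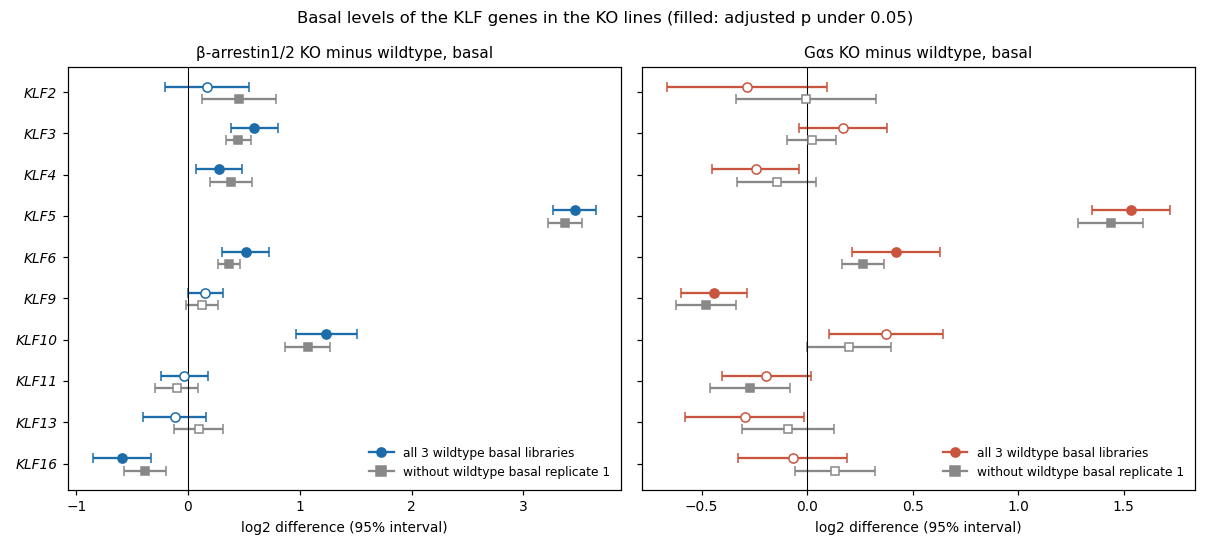
Log2 difference from wildtype basal cells (x axis, 95% intervals) of each KLF gene in β-arrestin1/2 KO (left) and Gαs KO cells (right). Coloured circles use all libraries, grey squares leave out wildtype basal replicate 1, and filled symbols are called. KLF5 lies at 3.46 and 1.53, and the KLF16 circle at -0.59 moves to -0.38 without the replicate.

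Salmon divides reads between the transcripts of a gene, and for most KLF genes a single protein-coding transcript took nearly all of them. KLF9 had 1 transcript with a count, and KLF13-201 took at least 98.3% of its gene in every library. For KLF4 the share of KLF4-201 was 72.3% on average in wildtype basal cells and 86.3 to 87.6% at basal in the KO lines. The lowest share of any library, 50.8%, was that of wildtype basal replicate 1, and the rest went mostly to the retained-intron transcripts KLF4-205 and KLF4-204. Counted on KLF4-201 alone, wildtype cells had 320, 434 and 424 normalized counts at basal and 733, 609 and 576 with isoproterenol, a 1.63-fold ratio of means without overlap. The same ratio was 2.18 in β-arrestin1/2 KO cells and 0.990 in Gαs KO cells. The leading KLF6 transcript, KLF6-206, gave 1.31, 1.40 and 1.11 in the 3 lines in that order, and its groups overlapped only in Gαs KO cells. For KLF6, KLF6-207 took 17.8% (SD 1.75) in wildtype basal, 12.1% (SD 6.48) in β-arrestin1/2 KO basal and 22.2% (SD 5.66) in Gαs KO basal cells. These shares were not tested between lines. KLF5-201 took 76.7% of KLF5 on average in wildtype basal cells and 100% in isoproterenol-treated ones. Its wildtype TPM was 8.82 at basal and 7.70 with isoproterenol, while its mean normalized counts were 255 and 278.

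The rest of the family and its known partners were read as lists. Of the other 8 KLF genes, KLF7, KLF8, KLF12, KLF14 and KLF15 were tested, and KLF1, KLF17 and KLF18 never exceeded 7 counts in a library. None of the 5 was called in a response by the edgeR QL test. At basal, KLF12, a CtBP-binding relative of KLF3, was higher in β-arrestin1/2 KO cells (log2 difference 0.91, adjusted p = 2.2e-05), and KLF8, of the same branch, was higher in Gαs KO cells (0.86, adjusted p = 0.0129). KLF15, a metabolic regulator induced by glucocorticoids, was lower in both, by -1.68 (adjusted p = 1.2e-07) and -1.89 (adjusted p = 3.1e-08). These 3 genes were singled out after their values were seen.

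The SP family binds the same GC boxes as the KLFs. Of its 9 genes 8 were tested, and SP9 was called lower in the β-arrestin1/2 KO response, with a mean of 186 normalized counts at basal and 103 with isoproterenol (log2 fold change -0.85, adjusted p = 0.00476). At basal 1 SP gene was higher and 1 lower in β-arrestin1/2 KO cells and 1 was lower in Gαs KO cells. Of 8 cofactors (CTBP1, CTBP2, SIN3A, SIN3B, HDAC1, HDAC2, EP300 and CREBBP), 0 were called in a response by edgeR's test and 1 was higher at basal in each KO line. Of 18 genes known to act upstream of KLF genes or their proteins, in the ERK5 and MEF2, transforming growth factor β, serum response and glucocorticoid pathways and among KLF ubiquitin ligases, 0 were called in a response, 6 were higher and 4 lower at basal in β-arrestin1/2 KO cells, and 3 were higher and 2 lower in Gαs KO cells. Over all tested genes, 15.7% were called higher and 17.9% lower at basal in β-arrestin1/2 KO cells. In Gαs KO cells these shares were 14.2% and 17.1%, and the lists were not tested against them. Among the markers of HEK293 cells, NEFL was called higher in the β-arrestin1/2 KO response (log2 fold change 0.37, adjusted p = 0.00546, edgeR QL test).

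Likeness between genes is given as Pearson's r of log2 CPM over the 18 libraries, which share 6 groups and 3 lines, and is a description. The genes most like KLF4 were DUSP4, ZFP36L1 and FAM43A, each with r = 0.97. Those most like KLF9 were PCK1, ID2 and TENT5A, each with r = 0.97, and those most like KLF6 were YPEL5 (r = 0.95), ERRFI1 (0.94) and CLK1 (0.94). Within the family, KLF4 and KLF9 had r = 0.87, KLF5 and KLF10 0.95, KLF3 and KLF10 0.95, and KLF10 and KLF16 -0.97. KLF6 was less like KLF4 (0.56) and KLF9 (0.34).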

How the data were processed

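RNA-Seq libraries of 18 samples were analysed, with 3 biological replicates in each of 6 groups taken from the labels. The authors deposited expected counts, Salmon 1.7.0 estimates of read pairs for 184844 transcripts, neither scaled for depth nor for length, and 0 columns were left unused. The transcript index is not given in the sources used here. Transcripts were matched by Ensembl identifier to GENCODE release 29 (GRCh38), where 161798 matched, 92.9 to 93.7% of the counts of a library were kept, and gene sums were rounded. TPM was computed from annotated transcript lengths, not effective lengths.

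The quasi-likelihood test of edgeR 4.0.16 (R 4.3.3) was fitted to all 18 libraries with TMM scaling, filterByExpr by group and a coefficient per group, and p-values were adjusted over 15519 genes. The study used DESeq2, here an alternative (DESeq2 1.42.0, Wald test). Standard errors are the log2 fold change divided by the square root of F, and 95% intervals are 1.96 standard errors. Tables and figures were made with Python 3.11.15, pandas 2.3.3, numpy 2.4.6 and matplotlib 3.10.9.

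The members and gene lists were chosen with earlier results of these data known. The values of 1 marker gene are not reported here. All 10 members are named, with list genes where called in a response or a difference, and the 3 genes most like each called member. Alternatives were other scalings and filters, only the groups compared, a replicate block, GC and length offsets (lowess, span 0.3), stricter thresholds and leaving out each library. On simulated counts, 94.5% of 200 genes changed 3-fold in β-arrestin1/2 KO cells were recovered, and 34% of those changed 1.5-fold, over 15519 genes. In the difference of that response from the wildtype one, 85% and 4% were recovered. With 3 libraries a group, an exact permutation test of a single value cannot give a two-sided p under 0.1. Counting error and the spread between replicates are covered by these p-values, and transcript assignment is not.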

Additional observations from a re-analysis of the deposited data

Results flagged for a closer look

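KLF4 was picked out because its response differed between the KO lines by a test of the difference itself. The β-arrestin1/2 KO response minus the Gαs KO response was 1.22 on the log2 scale (standard error 0.15, adjusted p = 2.5e-04 by the edgeR QL test). KLF5 and KLF10 were picked out because all isoproterenol libraries were above all basal ones in β-arrestin1/2 KO cells and below them in Gαs KO cells. The mean isoproterenol count over the basal mean was 1.15 and 0.908 for KLF5 and 1.23 and 0.925 for KLF10, in that order. The differences of these responses were 0.34 (adjusted p = 0.772) and 0.41 (adjusted p = 0.998) on the log2 scale by the edgeR QL test on all libraries, not called. In a fit to the KO libraries alone, KLF5 was called (0.33, adjusted p = 0.0355) and KLF10 was not (adjusted p = 0.0582). Of all tested genes, 15.4% were apart upward in β-arrestin1/2 KO cells and 5.58% downward in Gαs KO cells. In either direction the shares were 29.7% and 10.5%. The share of all genes apart in opposite directions in the 2 lines was not computed.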

How the results depend on the processing

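No member changed sign in a comparison where it was called. Of the recomputed log2 fold changes, 1348 kept their direction and side of the threshold, 57 passed it and 25 lost it. In the wildtype response the count of called members went from 1 to 3 with DESeq2's Wald test, with GC and length offsets, with these offsets and a replicate block, and with the offsets without wildtype basal replicate 1. It was 2 with at least 10 counts in every library (0.571% of all genes) and 0 with only the groups compared (0.0903%). It was also 0 when a log2 change of 1 in either direction was required as well (0.18%). In the β-arrestin1/2 KO response that fold limit left 1 of 3. In the difference of β-arrestin1/2 KO and wildtype responses the count of 0 became 1 with DESeq2's Wald test and in all 3 fits with offsets. In the difference of Gαs KO and wildtype responses it became 1 with DESeq2's Wald test and 2 in all 3 fits with offsets. In the difference of the KO responses the count of 1 became 2 with DESeq2's Wald test and with offsets, alone or with the block. There 0.805%, 0.909% and 0.863% of all genes were called, against 0.406%. With only the groups compared the count was 5, where 3.73% of all genes were called. At basal, the 6 members called in β-arrestin1/2 KO cells became 2 with only the groups compared or with the fold limit. The 3 in Gαs KO cells became 1 under these same settings. The number was 5 with offsets and the block or with offsets without wildtype basal replicate 1. There 46.7% and 46.5% of all genes were called, against 31.3%. The calls over all genes moved too, in the wildtype response from 0.464% to 1.2% with DESeq2's Wald test and 1.46% with offsets, and in the differences of the β-arrestin1/2 KO and Gαs KO responses from the wildtype one from 0.168% to 0.67% and 0.78%, and from 0.161% to 0.438% and 0.361%. At basal they were 10.3% and 10.8% with only the groups compared, and 8.09% in each KO line with the fold limit. The cause was not tested. Leaving out a library gave 1 to 3 calls in the wildtype response (0.353 to 1.1% of all genes). It gave 1 to 2 in β-arrestin1/2 KO cells (0.713 to 0.899%) and 0 to 0 in Gαs KO cells (0%). The range was 0 to 2 in each difference from wildtype cells, where 0.0946 to 8.25% (β-arrestin1/2 KO) and 0.12 to 0.418% (Gαs KO) of all genes were called. Between the KO lines it was 1 to 1 (0.277 to 0.329%). At basal it was 5 to 7 without the β-arrestins and 3 to 6 without Gαs. In those basal fits 26.0 to 46.7% and 23.4 to 45.9% of all genes were called. Without TMM scaling, mean levels moved beyond their SD for KLF3 in wildtype cells with isoproterenol (1705) and for KLF4 (700.7), KLF9 (1412) and KLF13 (645) in β-arrestin1/2 KO basal cells.

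Over all tested genes, the calls of 72, 175 and 0 in the responses (wildtype cells first, then those without the β-arrestins, then those without Gαs) ranged over the alternatives from 13 to 226, 113 to 1161 and 0 to 9. The 26, 25 and 63 called in the differences (β-arrestin1/2 KO from wildtype, Gαs KO from wildtype, and between the KO lines) ranged from 10 to 1302, 15 to 71 and 44 to 572, and the 5208 and 4864 at basal from 1501 to 7518 and 1587 to 7327.

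Same-numbered libraries did not deviate together, with correlations across genes from -0.099 to 0.077, so the numbers were not taken to pair the samples. With the replicate number as a block, 1 member was called in the wildtype response (0.47% of all genes) and 2 in that of β-arrestin1/2 KO cells (1.1%). In that of Gαs KO cells the count was 0 (0%). It was 0 in both differences from wildtype cells (0.174% and 0.168%) and 1 between the KO lines (0.38%). At basal it was 5 in β-arrestin1/2 KO cells (33.1%) and 4 in Gαs KO cells (31.0%). The GC offsets without wildtype basal replicate 1 and the comparison of the KO responses were chosen after seeing the data. Depth limits KLF2 most, at 81 to 190 unscaled counts per library.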
